A study of Homo sapiens with 6 samples.

Results

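The AP-1 family genes encode basic leucine zipper (bZIP) transcription factors, and 10 of them were followed here through the H3K4me3 promoter lists of a WDR5 knockdown: FOS, FOSB, FOSL1, FOSL2, JUN, JUNB, JUND, ATF3, BATF3 and MAFF. They are a fixed set of gene names and were looked up among the 16500 distinct gene names of the deposited lists and tables. BE(2)-C cells, an established human neuroblastoma line with an amplified MYCN gene, had been treated for 24 hours with WDR5 siRNA-1 or with a control siRNA. WDR5 is a subunit of the complexes that methylate lysine 4 of histone H3, and the trimethylated form, H3K4me3, marks promoters in use. Each siRNA had 1 H3K4me3 chromatin immunoprecipitation library, and the IgG and input libraries of the same cells were not used here. All cells shared the line and its MYCN amplification, and the knockdown was by a single siRNA sequence.

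FOS and JUN proteins pair through their leucine zippers and bind DNA as AP-1. FOS, FOSB, JUN, JUNB and ATF3 are immediate early genes, switched on within minutes by growth factors, calcium or stress through mitogen-activated protein kinase (MAPK) signalling. FOS is a classic marker of neuronal activation, and JUN takes part in the response of sympathetic neurons to loss of nerve growth factor. In neuroblastoma, FOSL1 is known as a gene of the mesenchymal cell state.

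A gene counted as marked when the authors listed it as having an H3K4me3 peak no more than 1 kb from its transcription start site (TSS). The lists hold names without heights, read numbers or p-values, so the depth behind a call is unknown. With 1 library per siRNA there is no replicate error and no test, and every difference below describes these 2 libraries. Where a name is missing, no peak was called, and the mark itself may still have been there below the calling threshold. The WDR5 siRNA list held 11870 distinct names and the control siRNA list 13618. Of the control names, 1845 (13.5%) were missing from the WDR5 siRNA list, and 97 of the WDR5 siRNA names (0.817%) were missing from the control list. The labelled cell type was checked by its markers, and 8 of 8 sympathetic neuroblast genes, such as HAND2 and GATA3, were in both lists. None of the 3 blood, 3 epithelial, 2 liver and 2 muscle markers looked up was in either.

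Of the 10 AP-1 family genes, 8 were listed with WDR5 siRNA and all 10 with control siRNA. Of all 16500 names in the lists and tables, 11870 were listed with WDR5 siRNA and 13618 (82.5%) with control siRNA. A name outside the promoter tables is counted in that total only if it has a peak. Neither share is therefore a like background for the 6 members in neither table. The missing calls were FOSB and FOSL1, both of the FOS subfamily, and no member was listed with WDR5 siRNA only. Of the members with a control peak, 2 of 10 were thus listed only with control siRNA, against 13.5% of all control names, which differ by less than 1 gene. The count for the family is therefore near the background, and what the lists show is which members carried the missing calls.

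**Figure D1:**
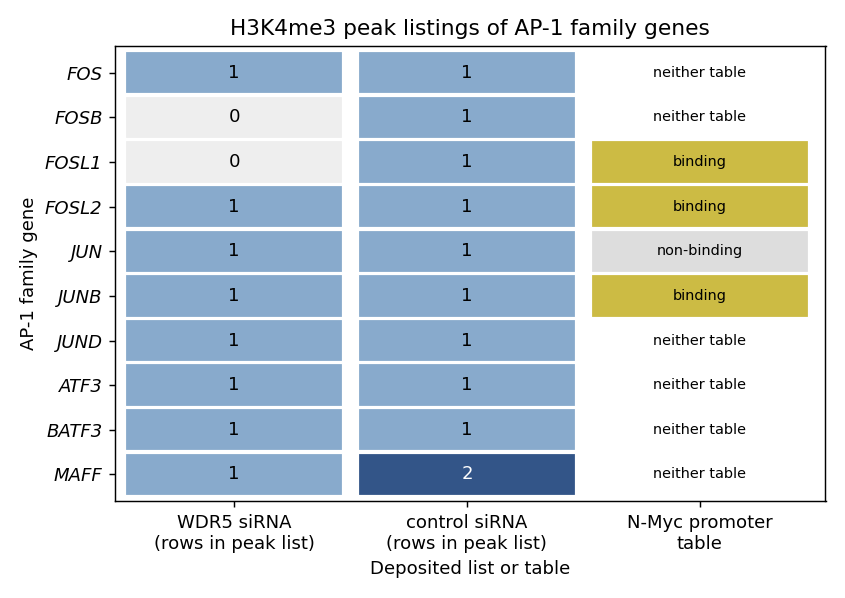
Each row is an AP-1 family gene, and the first columns give the number of rows with its name in the H3K4me3 peak list of WDR5 siRNA cells and of control siRNA cells (1 library each). The last column gives the N-Myc promoter table that holds it. FOSB and FOSL1 have 0 rows with WDR5 siRNA and 1 with control siRNA, and MAFF has 1 row with WDR5 siRNA and 2 with control siRNA.

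Within the FOS subfamily, whose proteins need a partner such as a JUN protein to bind DNA, 2 of 4 genes had a peak call with WDR5 siRNA and 4 of 4 had one with control siRNA. FOS, the founding member, and FOSL2, which encodes Fra-2, were listed in both libraries. FOSB, which encodes the FosB protein and its long-lived short form in neurons, was in 0 rows of the WDR5 siRNA list and 1 row of the control siRNA list. FOSL1, which encodes Fra-1, was likewise in 0 rows with WDR5 siRNA and 1 row with control siRNA. Among JUN genes, whose proteins can pair with one another as well as with FOS proteins, 3 of 3 were listed with WDR5 siRNA and 3 of 3 with control siRNA. JUN, JUNB and JUND each had 1 row in either list. With 4 FOS and 3 JUN genes and 1 library per siRNA, the subfamilies cannot be said to differ.

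The other bZIP members kept a call in either library. ATF3, a stress-induced factor that often acts as a repressor, and BATF3, known for its part in dendritic cell development, are neighbours on chromosome 1. They took consecutive rows in the WDR5 siRNA list (rows 1042 and 1043) and in the control siRNA list (rows 1197 and 1198). MAFF, a small MAF protein without a transactivation domain, was the only member with more than 1 row. It had 1 row with WDR5 siRNA and 2 consecutive rows with control siRNA. Among all 92 names with more than 1 control row, 68 had as many rows with WDR5 siRNA, 16 including MAFF had fewer but at least 1, and 8 had none. The file does not say what a repeated row stands for. RefSeq gives MAFF 2 starts 1026 bases apart, a distance close to the 1 kb reach of the peak rule, but the rows carry no position that would tie them to these starts.

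The missing calls of FOSB and FOSL1 stood alone in their stretches of the list. The control list runs in genome order, with 6734 of 6738 successive names of known TSS on a chromosome rising in position. The 4 nearest other names on each side of a gene in the control list are here called its neighbours. These are steps in the list, which can be far apart on the chromosome. PPP1CB, 2 names after FOSL2, lies 358.8 kb from it. For FOSB, all 8 neighbours were listed in both libraries. ERCC1, which encodes a DNA repair endonuclease subunit, came just before it and RTN2, a reticulon gene, just after. For FOSL1, all 8 neighbours were also listed in both, with CCDC85B before and C11orf68 after. Across all 1845 control-only names, 28.5% had no control-only name among their 8 neighbours, and 16.2% of the neighbours were control-only.

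JUN showed the opposite arrangement in the list, a call in both libraries with control-only names among its neighbours. Of its 8 neighbours 5 were listed in both and 3 only with control siRNA, and these were FGGY, HOOK1 and CYP2J2, which follow each other on the list. MAFF had PICK1 and KDELR3 as control-only neighbours. FOS (FLVCR2), FOSL2 (SPDYA), JUND (KIAA1683) and ATF3 (INTS7) had 1 each, and JUNB and BATF3 had none. Among all 11773 names listed in both libraries, 13.1% of such neighbours were control-only.

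The authors also sorted promoters into an N-Myc-binding table and a non-binding one, and 4 of the 10 members were in either, against 49.7% of all control names. N-Myc, the product of MYCN, is a MYC-family factor that binds E-box sequences. FOSL1, FOSL2 and JUNB were N-Myc-binding and JUN was N-Myc-non-binding. FOS, FOSB, JUND, ATF3, BATF3 and MAFF were in neither table, so no N-Myc class is known here for them. Of all control names with a table entry, 45.7% were N-Myc-binding. The labels and headers do not state the criterion for binding. Among control names in neither table, as FOSB is, 15.5% were control-only.

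The N-Myc-binding members differed among themselves in both peak call and place in the table. The tables are named as H3K4me3 quantification but carry no values. Their rows are in an order that the headers do not explain, and peak calls follow that order. Whether the order reflects H3K4me3 level is not stated, so row position is not taken as separate from the peak call. JUNB (TSS at chromosome 19, position 12902310 on hg19) held row 189 of 3254, or 5.81% of the table length. FOSL2 (chromosome 2, position 28615779) held row 384, at 11.8%. FOSL1 (chromosome 11, position 65667997) held row 3023, at 92.9%. FOSL1 thus stood far down the table from the other AP-1 genes in it. JUN (chromosome 1, position 59249785) was in row 431 of the 6331 non-binding promoters, at 6.81%.

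**Figure D2:**
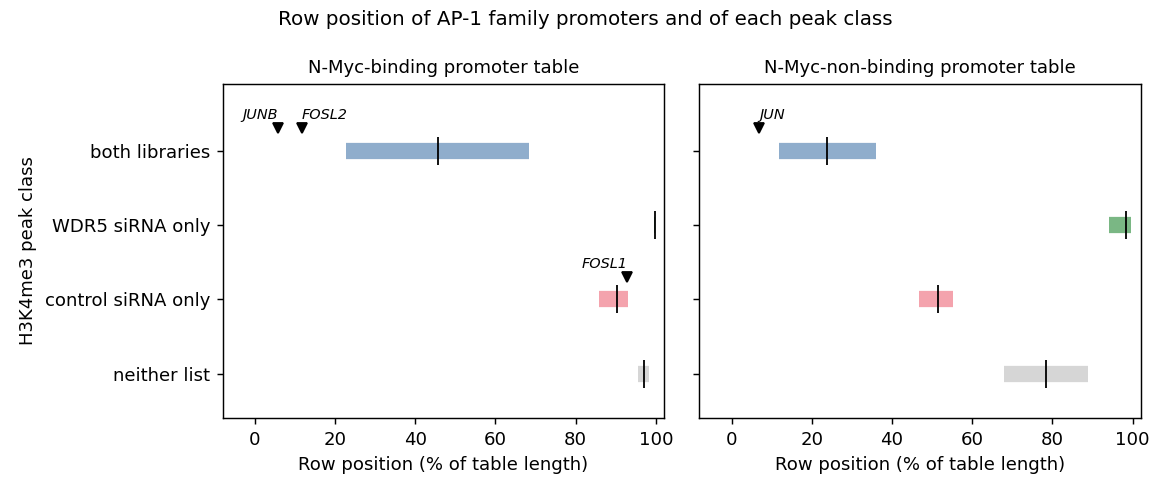
Row position in either N-Myc promoter table, as a percentage of the table length. Bars span the quartiles of all promoters of a peak class, vertical ticks are medians and triangles are AP-1 family promoters. JUNB at 5.81%, FOSL2 at 11.8% and JUN at 6.81% lie before the bar of their class, and FOSL1 at 92.9% lies inside the bar of control-only promoters.

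Promoters listed in both libraries had a median position of 45.6% in the N-Myc-binding table, with quartiles of 22.7 and 68.3%. JUNB and FOSL2 lay ahead of the lower quartile, with 188 and 383 of the 2958 such promoters in front of them. JUN had 430 of 3019 promoters of its class in front of it, and the lower quartile there was 11.9%. The 129 control-only promoters of the N-Myc-binding table had a median of 90.3% and quartiles of 85.9 and 93.0%, and 94 of them stood ahead of FOSL1. FOSL1 was thus placed as other control-only promoters were.

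The rows around each member describe the same placement again, since peak calls follow row order. Of the 100 promoters within 50 rows of JUNB, all 100 were listed in both libraries, and the same was true around FOSL2 and around JUN. Of the 100 within 50 rows of FOSL1, 48 had a call with WDR5 siRNA and 93 had one with control siRNA. Those 100 comprised 48 listed in both, 45 control-only and 7 in neither list. FOSL1 therefore sat in a stretch where a control call was about as often missing as present after WDR5 siRNA. Of all N-Myc-binding promoters with a control peak 4.18% were control-only, and of the non-binding ones 17.9% were.

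None of the 4 members in the tables shared its start region with another promoter of the tables. Names in neither table have no position here, so a closer start among them would have been missed. Such names were LOC100131060, next after JUN in the control list, and AK055918, next after FOSL2, both listed in both libraries. The nearest other TSS in the tables to that of FOSL1 was that of C11orf68, 18.5 kb away, listed in both libraries. The nearest to JUNB was PRDX2, which encodes a peroxiredoxin, at 10.4 kb and also listed in both. For JUN it was MYSM1, a histone H2A deubiquitinase gene, at 84.0 kb, listed in both. For FOSL2 it was PLB1, a phospholipase gene, at 103.2 kb, in neither list.

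Promoter sequences were available from RefSeq (build GRCh38.p14) for 8 of the 10 members, with 2 starts each for MAFF and ATF3, giving 10 promoters. FOSL1 and BATF3 had no entry. FOSB and FOS are shown because they are close relatives with different calls. Each run gives the 250 bases before the RefSeq start, and capitals mark the TATA sequence TATAAA and the cyclic AMP response element (CRE) core TGACG, on either strand. A match on the opposite strand reads CGTCA.
FOSB promoter, chr19:45467746-45467995, plus strand: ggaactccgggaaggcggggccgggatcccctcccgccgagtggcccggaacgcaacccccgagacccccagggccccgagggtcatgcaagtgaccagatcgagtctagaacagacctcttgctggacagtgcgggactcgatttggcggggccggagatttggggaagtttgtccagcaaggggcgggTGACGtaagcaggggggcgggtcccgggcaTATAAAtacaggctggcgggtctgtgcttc
FOS promoter, chr14:75278578-75278827, plus strand: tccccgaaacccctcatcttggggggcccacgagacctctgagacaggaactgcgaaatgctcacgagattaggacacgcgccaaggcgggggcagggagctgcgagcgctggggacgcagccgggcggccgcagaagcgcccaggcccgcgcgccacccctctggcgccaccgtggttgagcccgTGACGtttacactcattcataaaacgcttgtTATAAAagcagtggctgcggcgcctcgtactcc

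FOSB and FOS shared a core promoter layout, and of the pair only FOS was listed in both libraries. A link between layout and call was not tested. In FOSB, TATAAA began 30 bases before the start and TGACG 60 bases before it. In FOS, TATAAA began 33 bases and TGACG 64 bases before the start. Of all 35114 RefSeq promoters, 775 (2.21%) had TATAAA on the printed strand beginning 24 to 36 bases before the start, and 65 (0.185%) had it together with TGACG 40 to 80 bases before the start. TATAAA at this distance was present in 1.07% of promoters of names listed in both libraries and 2.77% of those of control-only names. Together with TGACG it was in 0.183% (22 of 12027) and 0.301% (5 of 1662) of these. This layout was picked out after the member sequences had been read. A match of letters is a description and not a binding site.

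JUNB, FOSL2 and JUN are shown as the members with a known N-Myc class and an entry. Capitals mark TATAAA, the CRE core TGACG, the box with the letters CCAAT and the CRE-like TGACATCA, again on either strand. None of the 3 held the E-box CACGTG in its window.
JUNB promoter, chr19:12791236-12791485, plus strand: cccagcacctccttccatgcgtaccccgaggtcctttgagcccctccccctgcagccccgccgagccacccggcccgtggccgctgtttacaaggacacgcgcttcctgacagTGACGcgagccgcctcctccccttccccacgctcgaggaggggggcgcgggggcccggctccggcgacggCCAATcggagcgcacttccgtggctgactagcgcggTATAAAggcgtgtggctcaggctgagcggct
FOSL2 promoter, chr2:28392608-28392857, plus strand: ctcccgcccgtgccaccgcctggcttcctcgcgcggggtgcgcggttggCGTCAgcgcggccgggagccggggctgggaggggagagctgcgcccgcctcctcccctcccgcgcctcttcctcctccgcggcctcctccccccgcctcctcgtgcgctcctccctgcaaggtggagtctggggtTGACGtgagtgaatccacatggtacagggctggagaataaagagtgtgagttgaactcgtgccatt
JUN promoter, chr1:58784048-58784297, minus strand: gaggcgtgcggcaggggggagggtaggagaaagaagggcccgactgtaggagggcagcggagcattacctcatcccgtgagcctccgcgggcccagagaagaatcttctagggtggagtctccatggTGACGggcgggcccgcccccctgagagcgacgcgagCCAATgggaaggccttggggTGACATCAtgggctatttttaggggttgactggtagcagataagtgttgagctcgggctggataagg

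JUNB had TATAAA 31 bases before the start, the third member with this placement after FOS and FOSB. JUN had no TATAAA and held TGACATCA, the sequence through which JUN protein is known to act on its own promoter, 67 bases before the start. That sequence was also in ATF3, 123 bases before its upstream start, and in 2.61% of all RefSeq promoters. FOSL2 had TGACG in both orientations, at 201 and 66 bases before the start. The AP-1 site TGACTCA, searched on both strands, was found in 1 member, in FOSL2 and just past the start, against 4.95% of all promoters. The E-box CACGTG was in 13.9% of RefSeq promoters of genes in the N-Myc-binding table and 5.88% of those in the N-Myc-non-binding table. No match in JUNB or FOSL2 says only that these letters were not in this window.

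MAFF is shown because both of its starts held the E-box, which no other member with an entry did, although it was in neither N-Myc table. Capitals mark CACGTG, the full CRE TGACGTCA and CCAAT.
MAFF upstream promoter, chr22:38201744-38201993, plus strand: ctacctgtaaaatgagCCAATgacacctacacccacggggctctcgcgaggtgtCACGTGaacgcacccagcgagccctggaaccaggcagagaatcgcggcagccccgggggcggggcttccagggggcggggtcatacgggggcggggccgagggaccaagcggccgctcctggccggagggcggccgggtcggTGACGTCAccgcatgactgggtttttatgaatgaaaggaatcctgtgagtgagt
MAFF downstream promoter, chr22:38202770-38203019, plus strand: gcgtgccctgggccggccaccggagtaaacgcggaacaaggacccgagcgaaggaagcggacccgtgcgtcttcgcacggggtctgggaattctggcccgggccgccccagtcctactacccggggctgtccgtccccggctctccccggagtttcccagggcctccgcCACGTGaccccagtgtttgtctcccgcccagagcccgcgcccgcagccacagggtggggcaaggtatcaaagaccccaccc

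CACGTG lay 196 bases before the upstream MAFF start and 81 bases before the downstream one, and it was in 7.26% of all RefSeq promoters. The full CRE was in MAFF, 54 bases before its upstream start, and in JUND, 200 bases before its start, against 1.85% of all promoters. The core TGACG, which the full CRE contains, was in 7 of the 8 members with an entry, ATF3 being the exception. By promoter it was in 7 of 10, against 24.6% of all promoters and 33.1% of those of names listed in both libraries. The CArG box bound by serum response factor, 10 bases long, was in 0 of the 8 members and in 1.29% of promoters. Only 250 bases before to 50 after the start were searched, so a CArG box farther out would have been missed. CCAAT was in 5 members (5 of 10 promoters) and 34.6% of all promoters. GGGCGG, the GC box, was in 7 members (8 of 10 promoters) and 45% of all promoters. The shorter E-box form CANNTG was in 6 members (7 of 10 promoters) and 68.7% of all promoters.

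The number of CpG dinucleotides, which are dense at many promoters that carry H3K4me3, was counted for the members with an entry. FOSL1 had no entry, so FOSB was the only control-only member counted. A link between CpG number and the missing call was not tested. Promoters of names listed in both libraries had a median of 26 CpG per 300-base window, control-only names had 22 and names in neither list 5. FOSB had 23 CpG and a GC content of 64.0%. FOS had 30 CpG and 64.7% GC. JUND had 49, more than 98.4% of all promoters. FOSL2, JUNB and the upstream MAFF start had 29 each, and the downstream MAFF start had 26. Below FOSB came JUN with 16 CpG and the ATF3 starts with 4 and 1, and both genes were listed in both libraries. The call of ATF3 carries no position, so it cannot be assigned to either of these starts, which lie 49.6 kb apart.

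**Figure D3:**
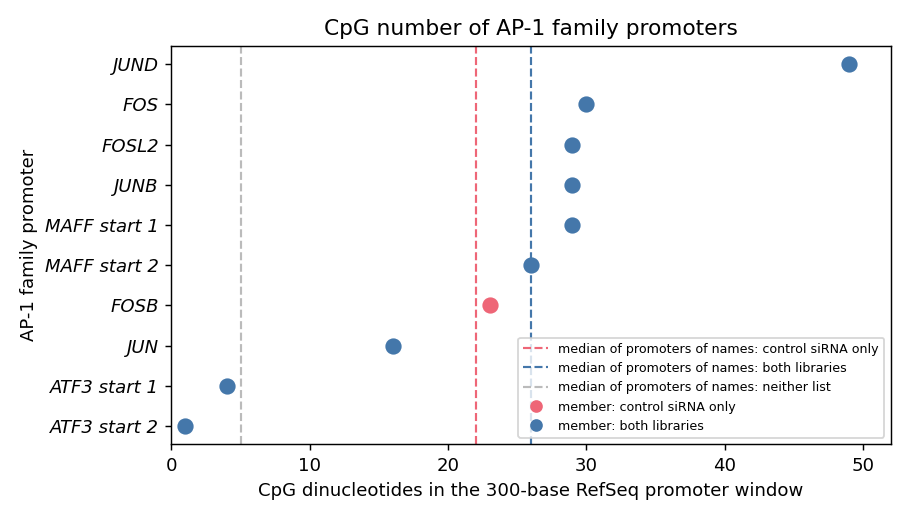
CpG dinucleotides in the 300-base RefSeq promoter window of each AP-1 family start (points, 10 promoters of 8 genes), coloured by peak class. Dashed lines are the medians over promoters of control-only names (22), of names listed in both libraries (26) and of names in neither list (5). FOSB at 23 lies between the first of these medians and that of names in both, while JUN at 16 and both ATF3 starts lie lower.

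The wider bZIP family was listed about as often as all names. Of 41 other bZIP genes, 30 were listed with WDR5 siRNA and 33 with control siRNA. Of all 16500 names, 11870 were listed with WDR5 siRNA and 13618 (82.5%) with control siRNA. As above, these shares are no like background for genes in neither promoter table, here and in the lists below. The 3 control-only genes were MAFA, MAFK and HLF (9.09% of those with a control peak, against 13.5% of all control names). MAFK is, with MAFF and MAFG, a small MAF gene, and MAFG was in neither list. MAFA is a pancreatic beta cell regulator and HLF belongs to the PAR bZIP group. ATF1, ATF2, ATF4 and ATF5 were among the 30 listed in both, and 8 genes, such as BATF, JDP2, MAF and NFE2, were in neither list. MAFA stood at row 2894 among N-Myc-binding promoters, at 88.9%, so like FOSL1 it was a control-only promoter near the table's end. MAFK, in the N-Myc-non-binding table, stood at 48.8%, and the median of control-only promoters there was 51.5%.

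Of 28 RAS and MAPK cascade genes, 25 were listed with WDR5 siRNA and 24 with control siRNA. Of all 16500 names, 11870 were listed with WDR5 siRNA and 13618 (82.5%) with control siRNA. None of the 24 was control-only, against 13.5% of all control names. ARAF, BRAF and HRAS were listed in both. MAPK8, which encodes the JUN kinase JNK1, was the exception in the other direction, listed with WDR5 siRNA and not with control siRNA, against 0.817% of all WDR5 siRNA names. Its promoter was N-Myc-non-binding and stood at row 6303, at 99.6% of the table length. MAPK9, which encodes JNK2, was listed in both and MAPK10, which encodes JNK3, in neither. Serum response factor SRF and its partners ELK1, ELK3, MKL1 and MKL2 were listed in both, and ELK4 and MYOCD in neither. Of 10 MAPK phosphatase genes, 8 had a call with WDR5 siRNA and 9 with control siRNA. Both counts were near the shares of all names. DUSP1, DUSP10, DUSP16 and DUSP4 were among those listed in both, DUSP9 was control-only and DUSP2 was in neither list. The control-only share of these phosphatase genes, 11.1%, was near the 13.5% of all control names.

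The other immediate early genes, which are induced together with FOS and JUN, numbered 21 on the list examined. Of these, 17 were listed with WDR5 siRNA and 21 with control siRNA. Of all 16500 names, 11870 were listed with WDR5 siRNA and 13618 (82.5%) with control siRNA. As above, these shares are no like background for the 11 of them in neither promoter table. The 4 control-only genes (19.0%, against 13.5% of all control names) were EGR4, NR4A1, KLF4 and CYR61. EGR4 is a zinc finger factor of the EGR group, NR4A1 an orphan nuclear receptor, KLF4 a Krüppel-like factor and CYR61 a matrix protein gene. Relatives of these regulators, picked with the calls in view, were listed in both libraries, namely EGR1, EGR2 and EGR3, NR4A2 and NR4A3, and KLF2 and KLF6. ARC and BTG2 were also listed in both.

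Among 16 genes known as AP-1 targets, 6 were listed with WDR5 siRNA and 9 with control siRNA, and 7 were in neither list. Of all 16500 names, 11870 were listed with WDR5 siRNA and 13618 (82.5%) with control siRNA. PLAUR, the urokinase receptor gene, HMOX1, which encodes heme oxygenase, and FN1, which encodes fibronectin, were control-only (33.3% of the 9, against 13.5% of all control names). With 9 genes and 1 library per siRNA, this share cannot be said to differ from the background. CCND1, CD44, ITGA5 and PLAU were listed in both, and the collagenase and stromelysin genes MMP1 and MMP3 in neither. HMOX1 and FN1 were N-Myc-binding promoters at 88.4 and 87.8% of the table length, ahead of FOSL1 at 92.9%. PLAUR, in the N-Myc-non-binding table, stood at 59.0%. Of 10 genes whose products bind or modify AP-1 proteins, 7 had a call with WDR5 siRNA and 8 with control siRNA. Both counts were near the shares of all names. COPS5, which encodes JAB1, a JUN co-activator, was the control-only one (12.5%, near the 13.5% of all control names). FBXW7, a ubiquitin ligase subunit that targets JUN, was listed in both, as were DDIT3, NACA and RB1. DDIT3 is also among the bZIP genes above.

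**Figure D4:**
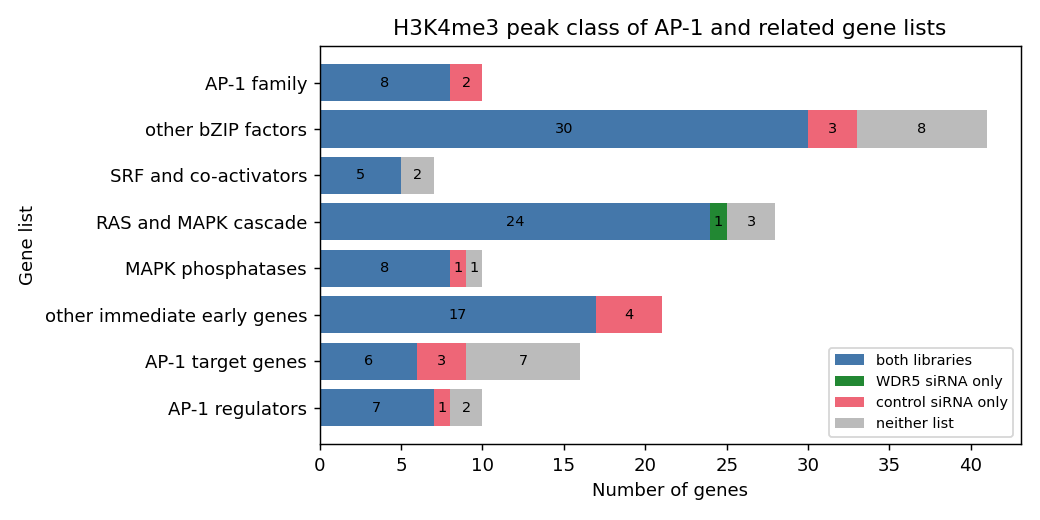
Number of genes per list by H3K4me3 peak class, for the 10 AP-1 family genes and 7 related lists. Blue marks names listed in both libraries, green WDR5 siRNA only, red control siRNA only and grey neither list. The AP-1 family and the other immediate early genes have no grey segment, and MAPK8 is the green one.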

How the data were processed

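H3K4me3 was profiled by chromatin immunoprecipitation and sequencing in 1 library of WDR5 siRNA cells and 1 of control siRNA cells, grouped by their titles. Per the submitters' processing notes, BWA 0.7.12 and bedtools were used on build hg19, with no role stated. The peak caller and threshold were not given in the sources used here. The authors deposited gene name lists and promoter tables (TSS interval and name), with no measured unit. The second coordinate of an interval was taken as the 1-based TSS. Repeated names were counted once per list and matched by exact symbol. A promoter was joined to the lists by name, so a peak at another TSS of the gene can count for it.

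The members and lists were chosen with earlier results of these data known. Named genes were all members, every list gene called in only 1 library, examples listed in both, and neighbours in list order or by TSS. Other genes named, such as relatives of control-only genes and genes in neither list, were chosen after their values were seen. TGACG, TGACATCA and the placement of TATAAA were also added later. Motifs were counted in RefSeq windows of 250 bases before to 50 after the start, on both strands, and the look-up and motif search were tested on simulated data. RefSeq sequences are on GRCh38.p14 and the deposited positions on hg19, and no position was converted. No test was run, because each siRNA has 1 library. Python 3.11.15, pandas 2.3.3, numpy 2.4.6, scipy 1.17.1 and matplotlib 3.10.9 were used.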

Additional observations from a re-analysis of the deposited data

How the results depend on the processing

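No paired analysis was possible because each siRNA has 1 H3K4me3 library, and for the same reason no library could be left out. Ratios, pseudocounts and low-value filters on H3K4me3 level, listed beforehand, could not be run, since the files hold no level. FOSB and FOSL1 remained the control-only members when RefSeq synonyms were allowed and when names with repeated rows were dropped. Leaving out promoters within 2 kb of another in the promoter tables removed no member, so it shows nothing. Restriction to FOS and JUN genes keeps both by construction. Among the 7 FOS and JUN genes, 5 were listed in both, because fewer genes enter. Counting rows as deposited, which was added after seeing the data, gave 3 missing rows, the third being from MAFF. The background did move. The control-only share was 11.6% of control names in a promoter table, 4.18% of N-Myc-binding and 17.9% of N-Myc-non-binding ones, and 8.19% with all table names as the denominator. N-Myc-binding promoters made up 33.9% of all table entries and 45.7% of those with a control peak. Restricting lists to genes in a promoter table, also chosen later, left 2 of the 4 control-only immediate early genes, because NR4A1 and KLF4 are in neither table. With the window ended at the start, the AP-1 site of FOSL2 fell outside it. Depth is unknown, so a gene listed in both libraries can still differ in level between them.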
